A study of Mus musculus with 5480 samples.

Results

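Early adventitial fibroblasts of the mouse lung were compared at postnatal day 7 (P7) between mice in hyperoxia, meaning oxygen-enriched air, and mice in normal air. The cells were those that the study's own subtype label calls early adventitial fibroblasts. The whole series holds 5480 cells, 2236 of them at P7. Of the P7 cells, 93 in 8 well columns of a single plate of the male hyperoxia mouse were left out, 15 of them with this label. The kept cells with the label at P7 numbered 314. One female and one male mouse made up each group, so n = 2 mice a side. The female and male in normal air gave 49 and 55 cells, and the female and male in hyperoxia gave 109 and 101. All 4 were P7 pups, and the strain, genotype, oxygen level and length of exposure are not given in the sources used here. The same class in 4 mice at embryonic day 18.5 (E18.5) and P1, all in normal air, entered the fits to estimate the spread between mice, with 26 and 29 cells in the female and male at E18.5 and 138 and 67 at P1. All cells came from distal lung, were sorted by flow cytometry into plates and were read one by one, so a mouse's value is the sum of reads over its cells.

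Adventitial fibroblasts surround the larger vessels and airways of the lung, where they make collagen and elastic fibres and supply signals to vascular and immune cells. Breathing high oxygen after birth is an experimental model of the lung disease of preterm infants called bronchopulmonary dysplasia. Oxygen radicals damage DNA and proteins, and 2 transcription factors with known target genes respond to such damage in many cell types: p53, which arrests the cell cycle or starts cell death, and NRF2, which turns on antioxidant enzymes.

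The p53 element in DNA consists of half-sites whose cores often read CATG. A start region of Cdkn1a, the p53 target that is described most fully below, is shown because it holds that core in a repeat. It spans chr17:29090729-29091028 on the plus strand of GRCm38.p6 (RefSeq), from 250 bases before an annotated start to 50 bases after it, and the capitals mark the matched letters.

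Cdkn1a: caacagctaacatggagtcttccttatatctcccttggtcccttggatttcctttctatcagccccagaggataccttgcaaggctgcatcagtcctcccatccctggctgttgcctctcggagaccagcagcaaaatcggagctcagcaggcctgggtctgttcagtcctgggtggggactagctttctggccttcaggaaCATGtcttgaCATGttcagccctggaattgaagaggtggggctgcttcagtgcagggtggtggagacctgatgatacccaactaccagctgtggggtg

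The motif searched was CATGNNNNNNCATG on both strands, which is its own reverse complement and overlaps no other motif used. It begins at base 203 of this window of 300 bases. Of 32851 RefSeq windows of the same length, 0.712% hold it, and of the 19 p53 targets with a window Cdkn1a is the 1 with a match. A match is a run of letters and not a measured binding site.

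The libraries of the 4 mice at P7 held 57864166 and 61363552 reads in normal air and 70197026 and 99586777 in hyperoxia (female and male), and single cells held 48914 to 3124389 reads. Of the markers of the class, 16 of 16 adventitial fibroblast genes were tested. Their summed level was 19050 and 19300 CPM (counts scaled to a common library size) in normal air and 22190 and 21850 in hyperoxia. No other class was set beside these sums, so they do not test the label. Sequencing run and treatment cannot be told apart, since each mouse had its own runs, except for 1 run of CD31-sorted cells with 7 cells of the male hyperoxia mouse and 2 of the male in normal air. Each cell had its own well and library. P-values below measure only the spread between these mice.

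Early adventitial fibroblasts took a larger share of the sequenced mesenchymal cells in both hyperoxia mice. The share was 8.09% (95% Wilson interval 6.17 to 10.5) of 606 cells in the female and 9.65% (7.49 to 12.4) of 570 in the male in normal air. In hyperoxia it was 21.4% (18.1 to 25.2) of 509 cells in the female and 22.1% (18.5 to 26.1) of 458 in the male. The intervals of the 2 groups do not overlap, although they cover counting error only, and an exact permutation test of 2 mice against 2 cannot give a two-sided p below 0.333. On the plates of the mesenchymal sort the share was 7.82% to 10.2% on the 4 plates in normal air and 18.4% to 22.7% on the 4 in hyperoxia. The female at P1 had 21.8%, so a share of this size was also seen in normal air at another age. The left-out wells held 15 such cells of 93 (16.1%, 10.0 to 24.9). A subtype the labels call male hyperoxic fibroblasts made up 44 of those 93 wells and 11 of the kept cells.

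Each cell also showed more genes under hyperoxia at the same depth. When every cell was thinned at random to 100000 reads, leaving out 5 shallower cells (2 of the male in normal air and 3 of the female in hyperoxia), the median cell of the normal-air mice had reads of 2485 genes (female) and 2496 (male). The medians were 4024.5 and 4752 in hyperoxia. Without thinning they were 3027 and 3018 against 4529 and 5725. Plates varied within a mouse, from 2045 to 3384 thinned genes in the female in normal air, and all 4 mesenchymal-sort plates in hyperoxia lay above all 4 in normal air. The number of genes per cell moves with the treatment, and its part in the results below was not tested.

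**Figure D1:**
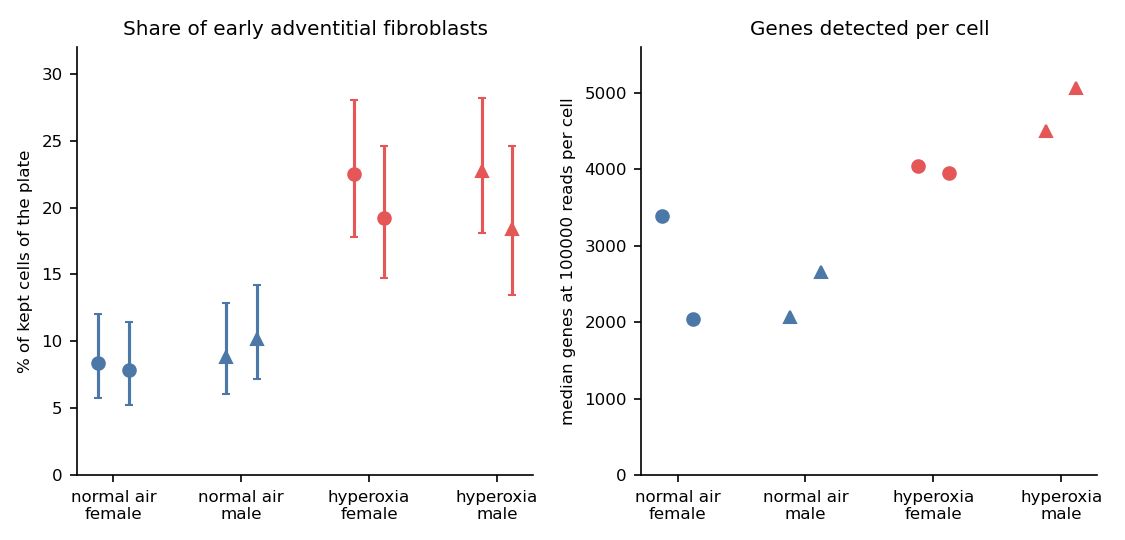
Share of early adventitial fibroblasts among the kept cells of each mesenchymal-sort plate at P7 (left, percent, with 95% Wilson intervals) and median number of genes per cell after thinning to 100000 reads (right), with 2 plates a mouse. The hyperoxia plates lie at 18.4% to 22.7%, above the 7.82% to 10.2% of the plates in normal air, and each has a median above those of the plates in normal air.

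The main comparison summed all reads of a mouse and used the quasi-likelihood test of edgeR, with sex as a further term. None of 14780 genes passed an adjusted p of 0.05 (0.0%), and 1173 had an unadjusted p under 0.05. The smallest adjusted p was 0.145, for Serpina3g. DESeq2 called 466 of the same genes (3.15%), 329 higher and 137 lower in hyperoxia. When the cells were thinned to equal depth first, edgeR called 9 of 12799 genes (0.0703%), 7 higher and 2 lower, with 968 at an unadjusted p under 0.05, and all 9 were among the 466 of DESeq2 on summed reads. The 9 rested on the P7 mice: without the female or the male in normal air or the male in hyperoxia 0 genes passed, without the female in hyperoxia 5 passed, and without a mouse of another age 33 to 56 passed. Without the sex term 2 genes passed.

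Serpina3g, a protease inhibitor of the serpin family, had the smallest p of all genes in both tests. On thinned reads its level was 31.9 CPM in the female and 18.3 in the male in normal air, against 304 and 258 in hyperoxia. Both hyperoxia mice lay far above both mice in normal air, and the gene rose by 3.50 on the log2 scale (SE 0.431, adjusted p 0.0249, edgeR on thinned reads). Reads of it were found in 37.6% and 47.5% of the cells in hyperoxia and in 10.2% and 9.09% in normal air. On summed reads 1 cell held 68.8% of the reads of the female and 1 held 59.5% of those of the male in normal air, and in hyperoxia the top cells held 16.3% and 14.1%. The related Serpina3n was at 87.6 and 23.2 CPM against 531 and 487 on summed reads, without overlap and not past the threshold (adjusted p 0.619). How reads were divided between these near-identical genes is not given in the sources used here, so values of single members are uncertain.

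Cdkn1a encodes p21, an inhibitor of the kinases that drive the cell cycle. Thinned levels were 136.7 and 302 CPM in the female and male in normal air and 830 and 1024 in hyperoxia. The lower of the hyperoxia mice was above the higher of the mice in normal air, and the gene rose by 2.16 (SE 0.305, adjusted p 0.0260). About 14.3% and 23.6% of cells had a read in normal air, against 49.5% and 51.5% in hyperoxia. In the male in normal air 1 cell held 62.6% of the gene's reads.

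Ccl2, the chemokine that draws monocytes, and Pgf, a vascular growth factor of the VEGF family, were close to absent in normal air. Ccl2 stood at 0 and 0.196 CPM in normal air and 30.7 and 91.5 in hyperoxia after thinning. The normal-air value is 1 thinned read, and 1272 against 1 read gives a ratio of 627 (95% interval 112 to 24780, counting error only). Ccl2 rose in the test (log2 8.93, SE 1.04, adjusted p 0.0249), but few cells carried it: 6.42% and 3.96% of the hyperoxia cells had a read, and 1 cell in each mouse held 42.3% and 52.2% of the reads. Pgf was at 0 and 0.785 CPM in normal air and 41.5 and 38.1 in hyperoxia and rose by 6.69 (SE 0.928, adjusted p 0.0260). Its reads were in 1 cell in normal air (1.82% of the male's cells) and in 13.8% and 18.8% of the cells in hyperoxia.

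Cavin1, Dpysl2 and Actb, genes of cell shape and membrane with reads in most cells, also rose. Cavin1, a coat protein of caveolae, the small pits of the cell membrane, was at 508.5 and 513 CPM in normal air and 1609 and 2236 in hyperoxia (log2 1.87, SE 0.266, adjusted p 0.0260). Dpysl2, which binds tubulin, was at 301 and 549.5 CPM in normal air and 1277 and 1604 in hyperoxia (log2 1.81, SE 0.257, adjusted p 0.0260). Actb, the cytoplasmic beta-actin, was at 3177 and 3817 CPM and at 7522 and 11450 (log2 1.42, SE 0.220, adjusted p 0.0484). The groups do not overlap for any of them. The sister actin Actg1 was at 525.5 and 338 CPM in normal air and 514 and 484 in hyperoxia, where the groups overlap (log2 0.22, SE 0.301, adjusted p 0.927). Actb has processed copies in the genome, and how such reads were assigned is not given in the sources used here.

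The 2 genes that fell were Nr4a2 and Ly86. Nr4a2, a nuclear receptor induced within minutes of many stimuli, was at 165 and 219 CPM in normal air and 9.37 and 24.2 in hyperoxia, and fell by 3.63 (SE 0.486, adjusted p 0.0260). Reads of it were in 46.9% and 43.6% of cells in normal air and 16.5% and 32.7% in hyperoxia. Ly86, a partner of the cell surface receptor CD180, was at 103 and 53.8 CPM and at 3.40 and 2.15, and fell by 4.79 (SE 0.686, adjusted p 0.0260). Its reads came from 16.3% and 14.5% of cells in normal air and 2.75% and 2.97% in hyperoxia, so few cells decide the value, and the top cell of the male in normal air held 69.8% of that mouse's reads.

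**Figure D2:**
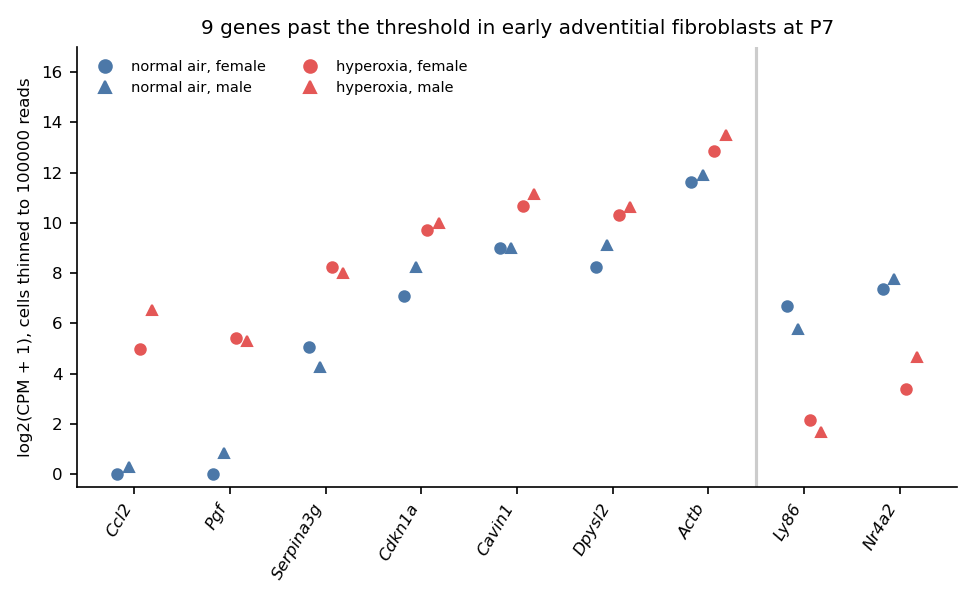
Levels of the 9 genes past the threshold, as log2 of CPM plus 1 in cells thinned to 100000 reads, with 1 point for each mouse (circles female, triangles male). The grey line divides 7 genes that rose from 2 that fell, and for each gene both hyperoxia mice lie on 1 side of both mice in normal air.

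On the 4 plates of each group from the mesenchymal sort, scaled by total reads, 8 of these 9 genes did not overlap between hyperoxia and normal air. Ccl2 overlapped because 1 hyperoxia plate had 0 CPM. The plates are parts of the same 4 mice, and the genes were chosen from the same cells, so this separation is no independent support. In the run that held cells of both male mice, the 7 cells in hyperoxia had 2068 CPM of Cdkn1a and the 2 in normal air 0. There Serpina3g was at 24.4 and 0 CPM, Ccl2 at 433 and 0, Dpysl2 at 2124 and 761, Cavin1 at 2162 and 995 and Actb at 18460 and 9321, in the order hyperoxia and normal air. Nr4a2 was at 41.9 and 1105, while Pgf and Ly86 had no read in either. Other genes described below had the opposite order in this run from that between the groups: in hyperoxia and normal air Klf13 was at 196.7 and 234.7 CPM, Cxcl12 at 219 and 563.5, Igfbp4 at 651 and 4028, Dpt at 932 and 5277 and Mmp3 at 0 and 1795. The collagen gene Col1a2 was at 5636 and 38920 there, so the few cells of the 2 mice also differed in matrix genes. These cells are too few for a test.

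By the rule that filled the list to 6 genes in each direction by unadjusted p on summed reads, Gnb1, Lrrc8a and Klf13 stood next to Serpina3g, Dpysl2 and Cavin1 among the higher genes. None of the 12 passed on summed reads (adjusted p 0.145 to 0.359). Gnb1, a beta subunit of G proteins, was at 366 and 440 CPM in normal air and 1096 and 1501 in hyperoxia (log2 1.67, SE 0.249). Lrrc8a, the obligatory subunit of the volume-regulated anion channel, was at 22.0 and 33.1 CPM against 108 and 226 (log2 2.53, SE 0.395). Klf13, a zinc finger transcription factor, was at 87.2 and 114 CPM against 260 and 370.5 (log2 1.64, SE 0.275). On the lower side with Nr4a2 and Ly86 stood Col23a1, a membrane-spanning collagen, at 171 and 281.5 CPM in normal air and 39.7 and 50.6 in hyperoxia (log2 -2.30, SE 0.345). Arl4a, a small GTPase, was at 211 and 232 against 63.2 and 50.3 (log2 -1.97, SE 0.342). Robo2, a receptor for Slit guidance proteins, was at 109 and 170 against 29.1 and 26.6 (log2 -2.33, SE 0.420), and Dpep1, a dipeptidase, at 450 and 353 against 168 and 147 (log2 -1.34, SE 0.244). Group by group, all 12 were without overlap between the mice. Such separation was common: among all tested genes 27.3% had both hyperoxia mice above both mice in normal air and 18.4% had both below.

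Targets of p53 were the list with the largest median among the pathway lists. All 24 genes of the list, which like the other lists was chosen with earlier results of these data known, were tested on summed reads. The median log2 fold change was 2.06, beside 0.15 over all 14780 genes, and 22 of 24 were above 0 against 55.2% of all genes. At an unadjusted p under 0.05, 13 of 24 were higher and 0 lower, against 4.81% and 3.13% of all genes. On thinned reads 16 were higher and 0 lower (all genes 4.31% and 3.26%), with a median of 1.76 beside 0.09. Only Cdkn1a passed the adjusted threshold, and only on thinned reads, while DESeq2 called 7 of the 24 on summed reads, all higher. Leaving out the male hyperoxia mouse lowered the count of 13 to 6 and leaving out the male in normal air also gave 6, with medians of 1.39 and 1.76.

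Cell death genes of the list included Bax, which opens the mitochondrial membrane and was at 81.7 and 58.0 CPM in normal air and 189 and 198 in hyperoxia (log2 1.48, SE 0.360, unadjusted p 0.00298). Pmaip1, which encodes the BH3-only protein Noxa, had 2 reads in normal air in all and was at 5.03 and 24.6 CPM in hyperoxia. The ratio was 924 (95% interval 256 to 7636, counting error only, not the spread between mice). The death receptor Fas was at 7.01 and 54.6 against 76.0 and 86.0 CPM, and Eda2r, another receptor of that family, at 0.436 and 3.51 against 26.7 and 26.2. Bbc3, which encodes Puma, was at 1.60 and 3.73 against 4.49 and 24.6. In each of these the lower hyperoxia mouse exceeded the higher mouse in normal air, some by little. Pmaip1, Eda2r and Bbc3 were low in normal air, so they had little room to be lower in hyperoxia.

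Growth and stress regulators of the list were Ccng1, a cyclin G, at 37.8 and 41.7 CPM in normal air and 84.9 and 142 in hyperoxia (log2 1.45, SE 0.472), and Phlda3, an inhibitor of AKT, at 126.5 and 132 against 247 and 378 (log2 1.23, SE 0.318). Sesn2, a sestrin that restrains mTORC1, was at 1.76 and 10.4 against 27.3 and 48.5, whereas Sesn1 was at 92.7 and 55.3 against 47.2 and 56.3 and overlapped. Trp53inp1, a p53 cofactor, was at 3.92 and 1.60 against 33.1 and 44.8 (log2 3.72, SE 1.12). Mdm2, the ligase that degrades p53, overlapped, with 52.0 and 25.8 CPM in normal air and 51.9 and 143.5 in hyperoxia. Gdf15, a secreted stress factor, stood at 12.7 and 3.44 against 2.05 and 5.80 CPM, also with overlap. Of the 24, 18 had both hyperoxia mice above both in normal air, beside 27.3% of all genes tested, and 6 overlapped.

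**Figure D3:**
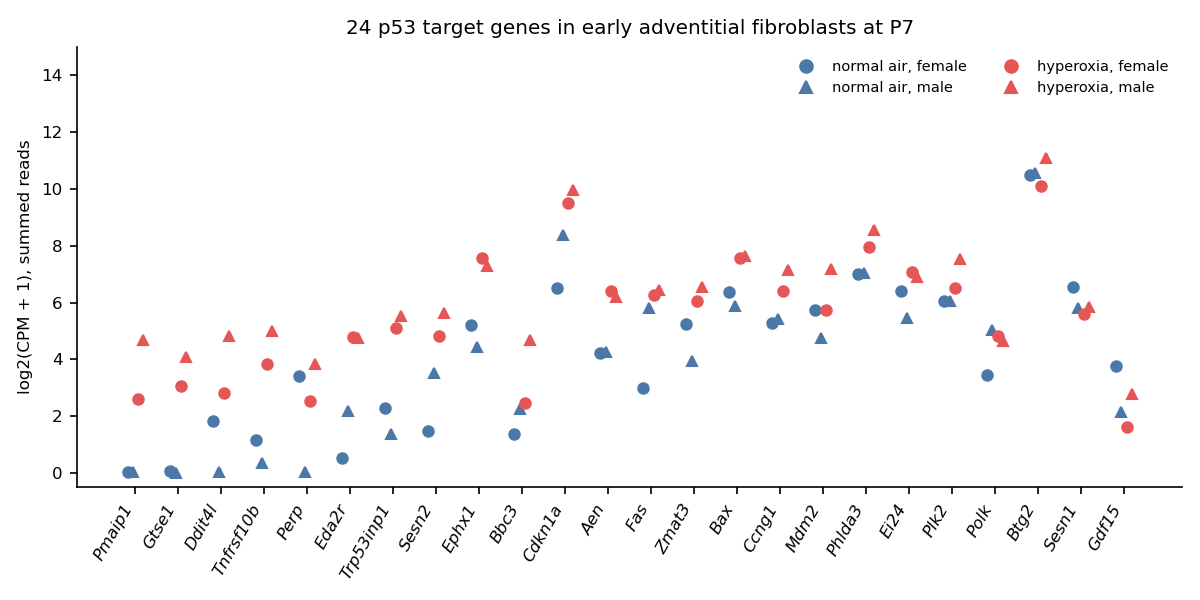
Levels of 24 p53 target genes as log2 of CPM plus 1 on summed reads, 1 point for each mouse, ordered by fold change. In 18 genes both hyperoxia mice lie above both mice in normal air, beside 27.3% of all genes tested. In 6 genes, Mdm2, Perp, Polk, Btg2, Sesn1 and Gdf15, the groups overlap.

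Of 19 tested NRF2 targets, 4 were higher and 2 lower at an unadjusted p under 0.05 (all genes 4.81% and 3.13%), with a median of 1.11, and none passed the adjusted threshold. Without the male hyperoxia mouse 0 were higher and 0 lower. Osgin1, an oxidative stress-induced growth inhibitor, had no read in normal air and was at 7.80 and 17.1 CPM in hyperoxia, at least 467-fold higher than 3 reads over the normal-air group, but 1 cell in each hyperoxia mouse held 62.3% and 66.9% of the reads. Srxn1, which repairs oxidized peroxiredoxins, was at 14.0 and 4.36 CPM in normal air and 43.5 and 75.2 in hyperoxia (log2 3.02, SE 0.970). G6pdx and Pgd, enzymes that make NADPH in the pentose phosphate pathway, were at 19.0 and 5.91 against 34.9 and 40.7 CPM and at 28.6 and 32.1 against 68.8 and 84.2. The ferritin chains Fth1 and Ftl1, which store iron, were the 2 on the lower side, with Ftl1 at 1716 and 2720 against 1464 and 1143 CPM. Among 14 superoxide dismutases, catalase and peroxidases 1 was higher at that p, Sod1, the cytosolic superoxide dismutase, at 155 and 244 CPM in normal air and 375 and 506 in hyperoxia (log2 1.16, SE 0.269, unadjusted p 0.00220, adjusted p 0.445). The median of these 14 was -0.11. Gpx3, a secreted glutathione peroxidase, was at 790 and 588 against 1110 and 1056 CPM (unadjusted p 0.0807). The metallothioneins Mt1 and Mt2, which bind metals, were at 52.4 and 8.28 against 65.3 and 66.6 CPM and at 3.90 and 3.35 against 11.1 and 6.63, with an unadjusted p of 0.151 and 0.475.

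Of 20 elastic fibre genes tested, 6 were lower and 0 higher at an unadjusted p under 0.05 (all genes 3.13% and 4.81%), with a median of -0.42. In 10 of the 20 both hyperoxia mice lay below both others, beside 18.4% of all genes tested. None passed the adjusted threshold. The 6 became 1 without the male hyperoxia mouse, 3 without the female hyperoxia mouse or the male in normal air, and 3, with 1 higher, under upper quartile scaling. On thinned reads 7 were lower and 1 higher with a median of -0.29, which was 0.10 without the female in normal air. Ltbp1, which holds TGF-beta in the matrix, was at 489 and 830 CPM in normal air and 252 and 196 in hyperoxia (log2 -1.54, SE 0.342, unadjusted p 0.00165), and Ltbp2 at 312 and 656 against 200 and 127.5. Fbn1, the fibrillin of microfibrils, was at 1576 and 1673 against 1054 and 1049 CPM (log2 -0.63, SE 0.247), and its partner Mfap2 at 2524 and 3068 against 1700 and 1420. Lox, which crosslinks elastin and collagen, was at 421 and 489 against 289 and 315.5. For each of these 5 genes the hyperoxia mice stayed below the mice in normal air.

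Of 19 fibrillar collagen and processing genes tested, 1 was lower and 0 higher at that p (all genes 3.13% and 4.81%), and the median was 0.03. The lower gene was Pcolce2, an enhancer of procollagen cleavage, at 490 and 611 CPM in normal air and 213 and 138 in hyperoxia. Col1a2, a chain of collagen I, was at 18120 and 19460 against 12290 and 15890 CPM (unadjusted p 0.110). Among 11 other collagens, 3 were higher and 3 lower. Col6a3, a chain of the pericellular collagen VI, was at 1567 and 1067 against 588 and 510 CPM (log2 -1.26, SE 0.330), and the basement membrane chain Col4a2 at 202 and 214 against 350 and 442 (log2 0.92, SE 0.266). Col14a1, a marker of this class, was at 1467 and 1498 against 1007 and 958 CPM (log2 -0.60, SE 0.257).

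In the proteoglycan and hyaluronan list 4 of 14 genes were higher and 0 lower at that p (all genes 4.81% and 3.13%). Has1, a hyaluronan synthase, was at 0.744 and 2.58 CPM in normal air and 20.7 and 55.8 in hyperoxia (log2 4.52, SE 1.14, unadjusted p 0.00363), and the hyaluronan receptor Cd44 at 106 and 204 against 251 and 373.5. Among 15 matrix proteases and inhibitors 3 were higher and 3 lower. Timp1, an inhibitor of matrix metalloproteinases, was at 31.2 and 151 CPM in normal air and 292 and 436 in hyperoxia (log2 2.22, SE 0.514), and on thinned reads it missed the threshold narrowly (log2 2.70, SE 0.445, adjusted p 0.0548). Mmp3, a metalloproteinase of broad substrate range, was at 10.0 and 32.3 against 82.2 and 118 CPM. Nearly all Mmp3 reads of the male in normal air came from 2 CD31-sorted cells. Without the male hyperoxia mouse 0 of the 14 proteoglycan genes were higher, and of the 11 other collagens 0 were higher and 2 lower. Without the female hyperoxia mouse 1 proteoglycan gene was higher, the other collagens had 1 each way, and of the proteases 2 were higher and 0 lower.

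**Figure D4:**
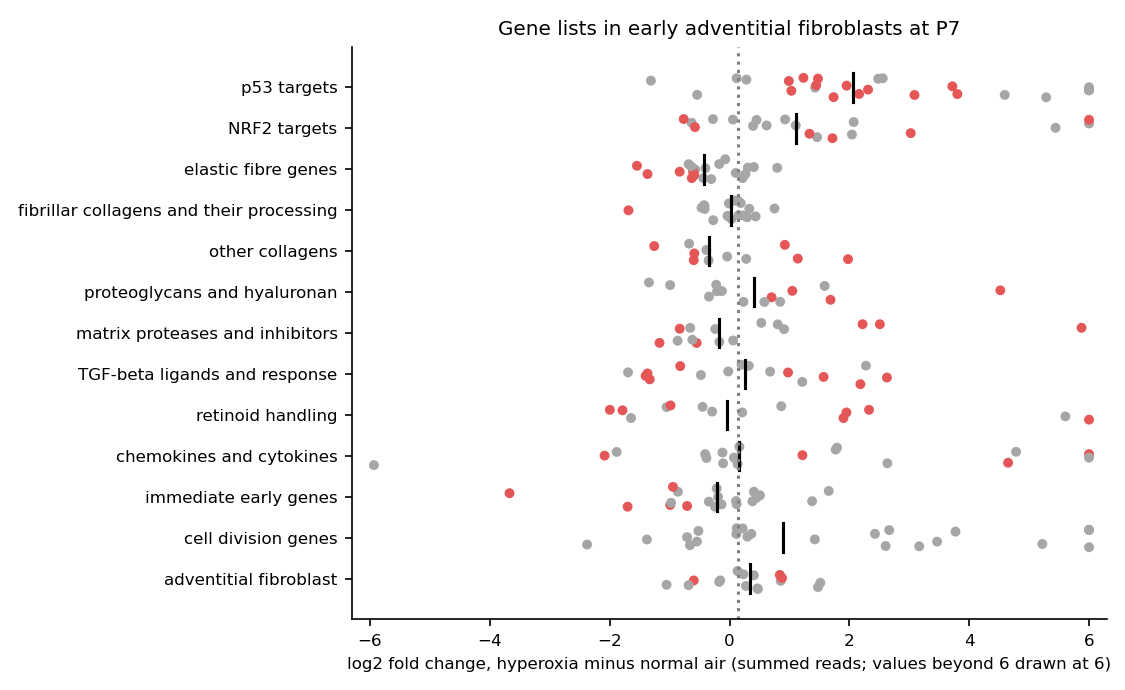
Log2 fold changes on summed reads of the genes of 13 lists, with black bars for list medians, a dotted line for the median of all tested genes (0.15) and red for an unadjusted p under 0.05. The p53 targets have a median of 2.06 with 13 of 24 genes red, and the elastic fibre genes a median of -0.42 with 6 of 20 red, all below 0.

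Growth factor pathways had members on both sides. In the TGF-beta list 4 of 16 genes were higher and 4 lower at that p (all genes 4.81% and 3.13%). Without the male hyperoxia mouse 0 were higher and 1 lower, and without the male in normal air 1 and 1. Tgfbr2, the receptor that binds the ligand first, was at 385 and 368 CPM in normal air and 119.5 and 172 in hyperoxia (log2 -1.40, SE 0.301, unadjusted p 0.00139), and the co-receptor Tgfbr3 at 86.0 and 142 against 43.7 and 44.6. Ctgf, a target of the pathway, was at 10.2 and 3.99 against 30.5 and 41.7 CPM (log2 2.63, SE 1.07). Ctgf was also the 1 higher gene of 14 matricellular proteins, none of which was lower, and there Wisp2 was at 0 and 9.37 against 66.7 and 28.5 CPM (unadjusted p 0.171). In the BMP list 1 of 15 was lower, the ligand Bmp4, at 387 and 186 against 171 and 96.8 CPM, and the ligand Bmp7 was at 123 and 17.8 against 17.7 and 22.3, with overlap. Of 19 genes of the Wnt list 3 were higher and 1 lower, and 1 was higher when the female in hyperoxia, the male in hyperoxia or the male in normal air was left out in turn. The ligand Wnt2 had no read in normal air and was at 9.44 and 34.2 CPM in hyperoxia, at least 817.5-fold above 3 reads over the group, with reads in 9.17% and 20.8% of the hyperoxia cells. The receptor Lgr5 was at 26.3 and 56.8 CPM against 13.8 and 12.0.

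Among 12 genes of the insulin-like growth factor axis, Igf2, a fetal growth factor, was at 56.4 and 61.4 CPM in normal air and 179 and 351 in hyperoxia (log2 2.19, SE 0.515, unadjusted p 0.00238). Its binding protein Igfbp6 was at 465 and 424 against 208 and 112 CPM (log2 -1.52, SE 0.311), and Igfbp4 at 2175 and 1599 against 3131 and 3690. Igfbp4 and the matrix protein gene Dpt, at 768 and 1111 against 1349 and 2117 CPM, were the 2 higher members among the 16 markers of the class itself, where Col14a1 was the 1 lower. In that axis Igf2, Igfbp4 and Igfbp6 had an unadjusted p under 0.05, with 2 higher and 1 lower (all genes 4.81% and 3.13%). Of 22 genes for FGF, PDGF and vascular growth factors, 1 was higher, the ligand Fgf9, at 0.508 and 3.49 against 25.7 and 14.8 CPM, and 1 lower, the receptor Fgfr3, at 146 and 84.1 against 43.3 and 22.3.

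Of 14 genes of retinoid handling tested, 4 were higher and 3 lower at an unadjusted p under 0.05 (all genes 4.81% and 3.13%). Rbp4, which carries retinol, was at 277 and 283 CPM in normal air and 62.6 and 77.9 in hyperoxia (log2 -2.00, SE 0.373, unadjusted p 0.000546), and Adh1, a dehydrogenase that oxidizes retinol, at 3228 and 4531 against 1523 and 698 (log2 -1.79, SE 0.410). On the higher side Aldh1a2, which makes retinoic acid, was at 69.8 and 28.5 against 181 and 164 CPM (log2 1.90, unadjusted p 0.00462), and Dhrs3, which turns retinal back into retinol, at 53.9 and 73.2 against 232 and 257 (log2 1.95, SE 0.386). None of these genes overlapped between the groups. Of the 14, 4 had both hyperoxia mice above both others, 4 had both below and 6 overlapped. Over all genes tested 27.3% had both above and 18.4% both below. None of the genes named here passed the adjusted threshold (adjusted p 0.384 to 0.563). Without the male in normal air or the female in hyperoxia the list had 2 genes higher and 2 lower.

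Chemokines and cytokines, 18 tested, had 3 genes higher and 1 lower at that p on summed reads (all genes 4.81% and 3.13%). Besides Ccl2 these were Cxcl12, which holds CXCR4-bearing cells, at 456 and 466 CPM in normal air and 982 and 1160 in hyperoxia (log2 1.22, SE 0.264), and Tslp, a cytokine that acts on dendritic cells, at 5.72 and 0.488 against 41.8 and 99.3. For Tslp 1 cell held 76.6% of the reads of the male in hyperoxia. Cxcl14 was the lower gene, at 65.2 and 38.2 against 18.7 and 6.83 CPM. Of 12 complement genes, C3, the central component, was at 32.5 and 7.46 against 159 and 184 CPM, and Cd59a, which blocks the membrane attack complex, at 175 and 203 against 50.9 and 37.2 (log2 -2.15, SE 0.433, unadjusted p 0.000915). For C3, 7281 of the 11810 reads of the female hyperoxia mouse came from 5 CD31-sorted cells (4072 CPM), while her mesenchymal-sort plates were at 64.4 and 69.3 CPM beside up to 60.6 in normal air. The complement list had 1 gene higher and 1 lower at that p, and 0 and 1 with mesenchymal-sort cells alone. In the interferon and MHC class I list, 2 of 21 were higher and 1 lower at that p, with Irf1, an interferon-induced transcription factor, at 251 and 157 against 82.7 and 105 CPM and Tapbp, which loads peptides onto MHC class I, at 108 and 91.9 against 165 and 193. With mesenchymal-sort cells alone 0 of these 21 were higher.

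Immediate early genes, which respond to handling as well as to signals, had 5 of 20 lower and 0 higher at that p on summed reads (all genes 3.13% and 4.81%). Their median was -0.20, and it was 0.06 without the female hyperoxia mouse and -0.44 without the male hyperoxia mouse. The sign of the median thus depended on the female hyperoxia mouse. On thinned reads of all mice 4 were lower and 1 higher (all genes 3.26% and 4.31%), with a median of -0.34. Beside Nr4a2, the lower genes on summed reads were Nr4a1, Egr1, Fosl2 and Dusp1. Nr4a1 was at 1791 and 1021 CPM in normal air and 312 and 548 in hyperoxia (log2 -1.70, SE 0.407). Egr1 was at 1821 and 2091 against 777 and 1213 (log2 -0.99, SE 0.258). Of 16 heat shock genes 1 was lower, the co-chaperone Dnajb1, at 247 and 577 against 132 and 264 CPM with overlap, while the chaperone Hspa1a was at 51.6 and 67.7 against 25.4 and 48.8. In the integrated stress response list 2 of 13 were higher, Sesn2 and Asns. The list median was 0.295, and it was 0.363 without the female hyperoxia mouse and -0.016 without the male hyperoxia mouse. Asns, the asparagine synthetase, had no read in normal air and was at 15.0 and 9.91 CPM in hyperoxia. That is at least 466-fold above 3 reads over the group. In the female hyperoxia mouse, mesenchymal-sort plate 2 had 0 reads of Asns, and 280 reads came from 5 CD31-sorted cells. None of 22 cell division genes, which mark cells in S phase or mitosis, had an unadjusted p under 0.05, and their median was 0.89. The mitotic kinases Aurkb and Plk1 came closest, at 6.64 and 0 against 7.72 and 8.54 CPM and at 0 and 0.192 against 8.82 and 2.71. Among 14 glycolysis enzymes none reached that p either (Pfkp and Gpi1 had the smallest, 0.198 and 0.296), and 1 of 15 HIF and oxygen-sensitive genes did, Ndrg1, at 25.6 and 56.8 against 13.7 and 9.88 CPM. Car9, a carbonic anhydrase, was at 1.87 and 0 against 5.89 and 8.08.

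Markers of other cells were read in the same sums. Of 11 endothelial genes tested, 7 were higher and 0 lower at an unadjusted p under 0.05 (all genes 4.81% and 3.13%). These 7 were at 0 to 0.436 CPM in normal air. Genes this low pass the filter on low counts mainly through reads in other groups, so they could hardly come out lower. With mesenchymal-sort cells alone the count was 2 of 10, and without the male hyperoxia mouse 0. Of the other 4 members, Ramp2 held most of the summed level, at 182 and 137 against 176 and 142 CPM, and Calcrl was lower in both hyperoxia mice, at 16.7 and 14.0 against 6.95 and 11.9. The receptor Kdr had 2 reads in normal air in all and was at 5.52 and 16.6 CPM in hyperoxia, and Plvap was at 0 and 0.436 against 19.1 and 43.5. Cells of the CD31 sort, which enriches endothelium, were 5 and 7 of the hyperoxia cells and 2 of the male's cells in normal air. The summed level of the 11 markers was 246.5 and 163 CPM in normal air and 280 and 357 in hyperoxia, and over mesenchymal-sort cells alone 246.5 and 164 against 240.3 and 219. On those plates alone Plvap was still at 6.54 to 27.7 CPM in hyperoxia and at most 0.895 in normal air. With mesenchymal-sort cells alone the p53 count on summed reads was again 13 of 24, with a median of 2.03. On thinned reads of those cells 7 genes passed in place of 9. None of the 7 was a p53 target, so Cdkn1a did not pass there. At an unadjusted p under 0.05, 16 of the 24 targets were again higher.

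Of 6 mesothelial genes tested, 3 were higher at that p and 0 lower (all genes 4.81% and 3.13%), with a median of 6.57. Their summed level was 302 CPM in the female and 0.0815 in the male in normal air, and 724 and 570 in hyperoxia. Over mesenchymal-sort cells alone it was 302 and 0.0829 against 282 and 520, where the groups overlap, and 0 of 6 had that p. Msln, which encodes mesothelin, was at 115.5 and 0 CPM against 409.5 and 291. Of the 30358 Msln reads of the female hyperoxia mouse, 22205 came from 5 CD31-sorted cells (12420 CPM). Myofibroblast and smooth muscle markers, 11 tested, had 2 higher and 3 lower at that p, with Acta2, the smooth muscle actin, at 864 and 1168 against 1904 and 1813 CPM and Myh11, the smooth muscle myosin, at 87.7 and 223 against 23.5 and 27.8 (log2 -2.54, SE 0.503). Without the female hyperoxia mouse 0 of these 11 were higher and 1 lower, and without the male hyperoxia mouse 1 and 1. Alveolar fibroblast markers had 2 of 12 higher, Wnt2 and Ces1d, and 1 lower, Itga8. Pericyte markers, 10 tested, and epithelial markers, 10 tested, had none at that p, with Cox4i2 of pericytes at 3.96 and 4.10 against 28.5 and 11.5 CPM and Scgb1a1 of club cells at 16.3 and 11.1 against 6.66 and 1.75. Summed epithelial levels were 80.2 and 21.7 CPM in normal air and 63.6 and 25.4 in hyperoxia, with 4 of 13 markers at 0 in normal air. Immune markers were at 40.8 and 15.8 against 27.0 and 27.0 CPM, with 5 of 11 at 0 in normal air and 3 of 7 tested higher at that p, whereas on thinned reads 0 of 4 tested were higher and 1 lower. The median of the immune list was 9.20 on summed and 0.77 on thinned reads. Its markers at 0 in normal air likewise had no room to be lower in hyperoxia. Summed erythroid levels were 1.16 and 1.63 against 3.80 and 10.7 CPM, and 0 of 4 tested had that p. The part of these cells' RNA in the results above was not tested, beyond the values without the CD31 sort.

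Hyperoxia was also compared between this class and the early alveolar fibroblasts of the same 4 mice at P7, 811 cells, by an interaction term with the mouse as a block. Both classes of the younger mice in normal air also entered this fit, which had 4 residual degrees of freedom on summed reads. Their alveolar cells numbered 14 and 24 (female and male) at E18.5 and 362 and 393 at P1. On summed reads none of 16015 genes differed past the threshold (0.0%), with 377 at an unadjusted p under 0.05 and 190 called by DESeq2. On thinned reads 9 of 15342 differed (0.0587%), in a fit that dropped the female at E18.5 because under 10 of its alveolar cells were left. Of the genes above, Cdkn1a was at 85.4 and 14.3 CPM in alveolar fibroblasts in normal air and 928 and 990 in hyperoxia (log2 4.04, SE 2.29). The difference between the classes for Cdkn1a was -2.50 (SE 2.43, unadjusted p 0.338) and did not pass. Serpina3g was at 4.61 and 6.75 CPM against 75.8 and 73.2 in alveolar cells, and Dpysl2 at 432 and 569 against 1412 and 1800. The 2 classes share mice, plates and runs, so their changes are not independent.

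The 9 genes differed on thinned reads in both directions, and their levels are given here on summed reads. Serpine2, a serpin that inhibits thrombin, was at 602 and 538 CPM in adventitial cells in normal air and 1583 and 1277 in hyperoxia. In alveolar cells it was at 3531 and 4862 against 4104 and 2849, a difference between the classes of 1.77 (SE 0.201, adjusted p 0.0111). Anxa1, an anti-inflammatory annexin, was at 281 and 280.3 against 573 and 377 CPM in adventitial cells and 420 and 458 against 288 and 166 in alveolar cells. Ces1d, a carboxylesterase and alveolar fibroblast marker, had 1 read in adventitial cells in normal air and was at 15.1 and 31.6 CPM in hyperoxia, where 1 cell held 80.4% and 57.8% of the reads. In alveolar cells Ces1d was at 361 and 451 against 514 and 303 CPM.

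The other 6 genes moved up in alveolar relative to adventitial cells. Nnat, an imprinted membrane protein, was at 144 and 103 CPM in normal air and 26.2 and 27.0 in hyperoxia in adventitial cells, and at 165 and 113 against 481.5 and 479 in alveolar cells (difference -3.38, SE 0.364, adjusted p 0.0111). Col14a1 was at 21.5 and 12.4 against 36.5 and 38.2 CPM in alveolar cells, opposite to its order in adventitial cells (difference -1.79, SE 0.216, adjusted p 0.0143). Mn1, a transcriptional regulator, was higher in hyperoxia in both classes, with 129 and 215 against 371.5 and 498 CPM in adventitial and 2.94 and 14.8 against 69.6 and 81.0 in alveolar cells. Thbs2, a thrombospondin, Ms4a4d, a membrane protein, and Ahnak2, a large scaffold protein, were near 0 in alveolar cells in normal air. In adventitial cells Thbs2 was at 764 and 800.0 against 734 and 607 CPM, Ms4a4d at 45.3 and 30.3 against 23.0 and 24.4, and Ahnak2 at 101 and 106 against 136.5 and 133. Ahnak2 in alveolar cells was at 0.00430 and 0.0149 against 16.7 and 12.9 CPM.

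**Figure D5:**
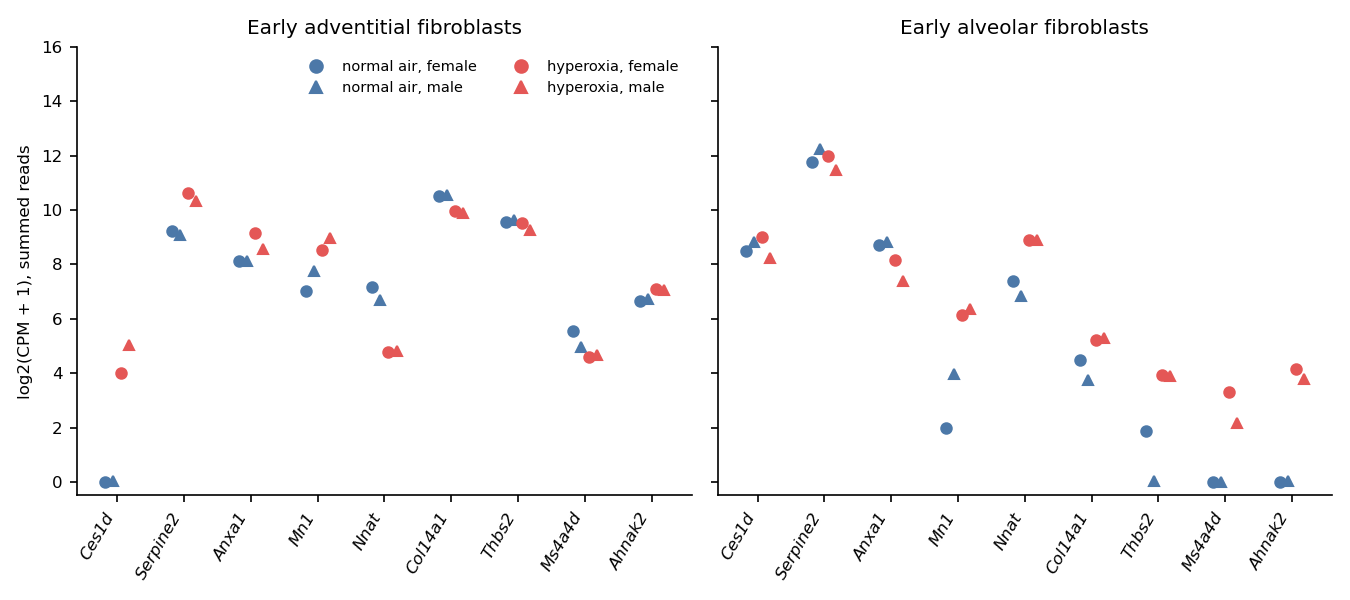
Levels of the 9 genes that differed between the classes on thinned reads, drawn here as log2 of CPM plus 1 on summed reads, in early adventitial (left) and early alveolar fibroblasts (right), 1 point for each mouse. Nnat has both hyperoxia mice lowest in adventitial cells and highest in alveolar cells, and Ces1d lies near 0 in normal air in adventitial cells alone.

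Set beside the younger mice in normal air, some of these genes had been at comparable levels at an earlier age, which is given as values with no test. Pgf on thinned reads was at 68.2 and 152 CPM at E18.5 and 10.5 and 10.5 at P1 (female and male), before 0 and 0.785 at P7 and 41.5 and 38.1 in hyperoxia. Tslp on summed reads was at 60.0 and 57.5 CPM at E18.5 and 44.4 and 65.2 at P1, against 5.72 and 0.488 at P7 and 41.8 and 99.3 in hyperoxia. Serpina3g on thinned reads was at 18.7 and 33.5 CPM at E18.5 and 203 and 191 at P1. Others had not: Cdkn1a was at 106 to 188 CPM in the 4 younger mice on thinned reads, below both hyperoxia mice. Cavin1 was at 485 to 943 and Dpysl2 at 369 to 630, again below both.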

How the data were processed

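Single cells had been sorted into plates and sequenced from Tn5 libraries, per the labels' protocols. The deposited values were whole-number read counts of 18072 genes per cell, not normalized, and no molecular identifiers are named. STAR 2.5.2b, HTSeq 0.10 and the build name GRCh38 appear in the submitters' processing notes without a role; the counting mode and annotation are not given in the sources used here. Cell subtypes are the authors' labels, no doublet caller was run, and wells of columns 1 to 8 on one plate were left out.

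For each mouse, the counts of its early adventitial fibroblasts were added up. The gene test was that of edgeR 4.0.16, run in R 4.3.3 (TMM scaling, filterByExpr, quasi-likelihood test, two-sided, terms for sex and group, 8 mice in 4 groups, 3 residual degrees of freedom), with Benjamini-Hochberg adjustment over all genes tested and a threshold of 0.05. The same test was run after thinning each cell to 100000 reads. DESeq2 1.42.0 and limma 3.58.1 were alternatives (DESeq2 without independent filtering for the comparison of classes). CPM are TMM-scaled, except plate and marker sums, which are scaled by total reads. No replicate numbers in the labels pair the mice, and sex was the only shared term.

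Named genes had at least 10 CPM at P7, one direction in both sexes and in the thinned test, up to 12 each way, filled to 6 by unadjusted p, plus the 2 of smallest p in each list and those called after thinning. Members, lists and rules were chosen with earlier results of these data known. Shares have 95% Wilson intervals. A fold against 0 reads used 3 reads over the group. The fitting script was tested on simulated data. A promoter window was read from RefSeq tables. The values of 1 gene are not reported here.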

Additional observations from a re-analysis of the deposited data

Results flagged for a closer look

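The change under hyperoxia differed between early adventitial and early alveolar fibroblasts for 9 genes by the interaction term of edgeR on thinned reads, and for 0 on summed reads. The log2 difference, adventitial minus alveolar, was 8.38 for Ces1d, 1.91 for Anxa1 and 1.77 for Serpine2. It was -1.79 for Col14a1, -2.79 for Mn1, -3.38 for Nnat, -4.63 for Thbs2, -7.63 for Ms4a4d and -10.3 for Ahnak2. The values over 4 in size involve a class whose mice in normal air had few reads of the gene, and depend on the prior count of the fit.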

How the results depend on the processing

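On summed reads, edgeR called 0 genes with RLE or upper quartile scaling, without a filter and with mesenchymal-sort cells alone. It also called 0 with the left-out wells put back and with the male hyperoxia mouse reduced to its first plate. Used in place of edgeR, limma-voom called 0. DESeq2 called 466, a fit of the 4 mice at P7 alone called 2, and the fit with no sex term (no replicate block) called 1, or 0 with 4 mice. On thinned reads, against 9 calls, DESeq2 called 169, the 4 mice at P7 alone 164, limma-voom 56, upper quartile scaling 14 and the fit with no replicate block 2. Leaving out 1 mouse gave 0 to 56. Depths of 50000 and 200000 reads, another random draw, RLE scaling and mesenchymal-sort cells alone gave 6 to 13. The sort, RLE, upper quartile and voom alternatives on thinned reads were chosen after seeing the data. For the difference from alveolar fibroblasts, against 0 calls, thinning together with the loss of the female at E18.5 gave 9, DESeq2 190, and leaving out 1 mouse 0 to 1. Leaving out that female alone on summed reads moved the genes at an unadjusted p under 0.05 from 377 to 1115, beside 1038 on thinned reads. Upper quartile scaling moved the median of all genes on summed reads from 0.15 to 0.34. The difference in genes detected per cell, hyperoxia minus normal air (the mean of the mouse medians), was 1898 and stayed positive, at 1534 to 2262 under the alternatives run. Over 89 results of single genes and 1676 alternative values, 1576 kept their direction and side of the threshold, 48 newly passed, 51 no longer passed and 1 reversed: Bmp7 was -1.73, ranged from -2.88 to 0.36 without 1 mouse, and was at 0.36 without the female in normal air. The causes were not tested. With 1 mouse of each sex in a group, 3 residual degrees of freedom and reads held by few cells limit what can be called.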
